A study of Mus musculus with 8 samples.

Results

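Inner cell mass (ICM) from diapaused mouse blastocysts was set against both developing stages that flank the arrest, the ICM of day 3.5 blastocysts and the epiblast of day 6.5 embryos, to ask which transcripts were peculiar to the arrested state. All 8 libraries of the series belong to the comparison. They comprise 3 of diapaused ICM, 3 of ICM and 2 of epiblast, and each was made from the lysates of about 50 embryos of C57BL/6 females. In the diapaused group tamoxifen (injected intraperitoneally) and 0.5 mg of Depo Provera (given subcutaneously) were administered on day 3.5, and the blastocysts were flushed from the uterus 5 days later. The labels give neither treatment for the developing groups, so arrest, days in the uterus and treatment cannot be told apart. Trophectoderm, the outer layer of the blastocyst, was lysed with antibody and complement, so both ICM groups can hold epiblast and primitive endoderm precursors, whereas the dissected epiblast comes from an embryo that has implanted. The contrast is the mean of diapaused ICM minus the average of the ICM mean and the epiblast mean, on the scale log2(adjusted TPM + 1), where adjusted TPM is the authors' transcript abundance per gene. It is given ± SE with the Benjamini-Hochberg adjusted p of limma's moderated test, and a gene was called when that p was under 0.05. A contrast against an average can be carried by 1 of the stages. Genes whose 3 diapaused values all lay above, or all below, the other 5 libraries are therefore counted separately.

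In diapause the blastocyst stops dividing and waits in the uterus without implanting, and it resumes development when hormonal signals return. In mice the pause can be brought on experimentally by blocking oestrogen action while progestin is supplied. Reduced activity of the growth-promoting kinase complex mTORC1, low biosynthesis and survival on internal stores are features for which the arrested blastocyst is known. LIF signalling through STAT3 is known to be needed for the ICM to persist during it.

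Of 17698 genes tested, 2269 were called higher in diapaused ICM (12.8%) and 2055 lower (11.6%). Together these are 4324 genes (24.4%). The values of diapaused ICM lay above all 5 other libraries for 1694 genes (9.57%) and below them for 1435 (8.11%). Both conditions were met by 1456 genes that were higher (8.23%) and 1084 that were lower (6.12%), which is 58.7% of all called genes. The list counts further on are to be read beside these shares of all tested genes. A stricter requirement, a call in each pairwise comparison (with ICM and with epiblast), was met by 817 higher and 364 lower genes. Against ICM alone 1331 genes were higher (7.52%) and 1029 lower (5.81%), and against epiblast alone 2830 (16.0%) and 3283 (18.6%), comparisons that share the diapaused libraries. The genes higher and above all others had a median contrast of 1.36, and 761 of them differed by at least 1 on the log2 scale even from the nearer stage. The genes lower and below all others had a median of -1.08, and 280 differed by as much. The nearer stage was ICM for 971 of the higher and 810 of the lower genes, and epiblast for 485 and 274. The plot of the contrast against the difference between the stages shows both sets around the line of no change between ICM and epiblast: 1138 of the higher genes (78.2%) and 836 of the lower (77.1%) differed by less than 1 between the stages, beside 72.2% of all tested genes. The requirement to lie outside both stages itself favours genes with a small difference between them, so this excess is not a separate result.

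**Figure D1:**
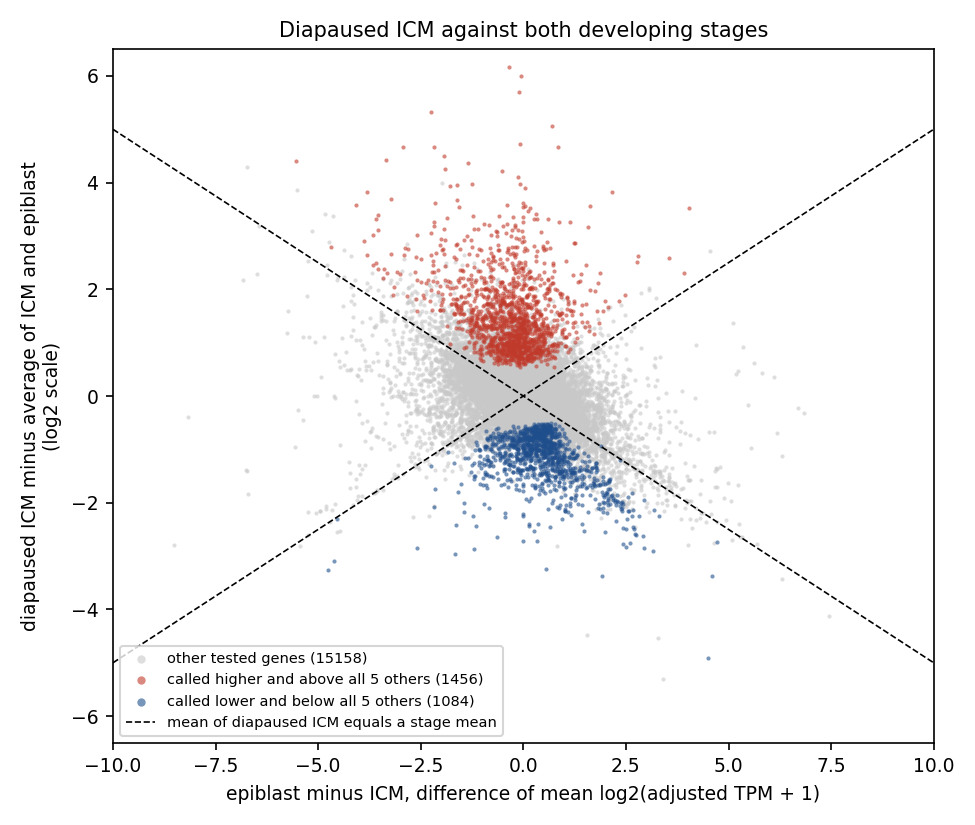
Each point is 1 of 17698 tested genes. The horizontal axis is epiblast minus ICM and the vertical axis is diapaused ICM minus the average of both, in units of mean log2(adjusted TPM + 1). Red points are the 1456 genes called higher and above all 5 other libraries, blue points the 1084 called lower and below them, and grey points the rest. Between the dashed lines, above or below their crossing, the diapaused mean lies outside both stage means.

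The libraries within a group resembled each other more than those of other groups, with Pearson correlations across genes of 0.944 to 0.968 within groups, 0.886 to 0.919 between diapaused ICM and ICM, and 0.818 to 0.845 between diapaused ICM and epiblast. Summed values ranged from 720674 to 1179026, and 14634 to 15130 genes per library reached a level of 1. Mitochondrially encoded genes held 5.68% to 7.91% of the summed values in diapaused ICM, 8.45% to 11.7% in ICM and 2.01% to 2.03% in epiblast, and the nucleolar gene Npm1 held 9.71% and 8.41% in epiblast against 0.978% to 3.21% elsewhere. The part of these shares in the contrasts was not tested, and scaling alternatives appear in the closing section. As the RNA came from pooled tissue, fewer cells of a type and less RNA per cell cannot be told apart.

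Markers of the cells that each group could hold differed in their own ways. The summed level of 26 markers of primitive endoderm, the tissue that lines the ICM, was 2900, 2660 and 3050 in diapaused ICM, 1160, 916 and 1260 in ICM and 123 and 129 in epiblast, so diapaused ICM exceeded all others. Naive pluripotency markers summed to 1960, 1570 and 1630 in diapaused ICM, 3210, 3010 and 3120 in ICM and 166 and 141 in epiblast. Their list medians by library, which a few abundant genes do not dominate, were 1.86, 1.45 and 1.88 in diapaused ICM and 1.85, 1.56 and 1.75 in ICM, which overlap. Post-implantation epiblast markers stood at 88.9, 98.1 and 108 in diapaused ICM, as low as the 99.4 to 137 of ICM and far under the 1200 and 741 of epiblast. Oocyte and cleavage-stage genes summed to 112, 110 and 98 in diapaused ICM, 1990 to 2130 in ICM and 11.2 in each epiblast library. The diapaused libraries thus held markers of both lineages of an ICM and little of the post-implantation markers. Visceral endoderm markers summed to 662, 675 and 664 in diapaused ICM, 45.8 to 78.9 in ICM and 346 and 504 in epiblast. Rhox5, an X-linked homeobox gene, made up 552 to 568 of the diapaused sums.

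Of cells that the dissection should remove, the marker sums of trophectoderm and of blood and immune cells were also higher, each through few genes. Trophectoderm markers summed to 809, 887 and 1020 in diapaused ICM, 179 to 327 in ICM and 118 and 132 in epiblast, and Fabp3 alone held 544 to 664 of the diapaused sums. Cdx2, the factor that defines trophectoderm, was at 0.0995, 0.531 and 0.901 in diapaused ICM, 0.337 to 1.48 in ICM and 1.58 to 2.16 in epiblast. Gata3, another of its factors, was above all others at 9.2, 4.81 and 11.2 against at most 2.43 elsewhere (2.06 ± 0.33). The keratin gene Krt18, named after its values were seen, was at 17.2 and 17.5 in diapaused ICM replicates 1 and 2 and at 121 in replicate 3, against 10.7 to 31 elsewhere. The part of these cells in the contrasts was not tested. The summed blood and immune markers were 137, 60.1 and 50.1 in diapaused ICM, 6.8 to 12.8 in ICM and 39.8 and 6.99 in epiblast. Both called members, Laptm5 and Cd68, encode lysosomal membrane proteins of macrophages and other cells, and Cd68 was at 80.6, 29.6 and 25.3 in diapaused ICM and at 1.31 to 9.24 elsewhere. Ptprc, Tyrobp, Csf1r and C1qa, which define blood cells and macrophages, reached at most 0.399 in any of the 8 libraries. Hba-a1, an alpha globin gene of red blood cells, was at 3.9e-04, 3.3 and 0.407 in diapaused ICM and at most 0.0645 elsewhere. In all, 19 of the 26 markers were under 1 throughout. Uterine markers summed to 21.6 to 32.9 in diapaused ICM, below every other library (34.3 to 90.3).

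The genes farthest from both stages were led by an immediate-early gene. Egr2 (ENSMUSG00000037868), a zinc finger transcription factor induced by growth factor signals, was at 57.8, 59 and 49.4 in diapaused ICM, at 0.229, 0.0919 and 0.0668 in ICM and at 0.0562 and 0.0333 in epiblast (contrast 5.69 ± 0.17, adjusted p = 1.3e-06). All 3 diapaused values were high and the developing values were near 0. S100a1 (ENSMUSG00000044080), which encodes a calcium-binding protein, was at 57.1, 31.2 and 79 in diapaused ICM, 0.0763, 0.111 and 0.603 in ICM and 2.28 and 0.246 in epiblast (5.07 ± 0.39, adjusted p = 1.2e-04). Phactr1 (ENSMUSG00000054728), for an actin and phosphatase regulator, was at 101, 307 and 61.2 in diapaused ICM, 4.17, 4.29 and 3.19 in ICM and 3.93 and 3.36 in epiblast (4.72 ± 0.45). Its developing stages were alike, while the diapaused values spread widely and stayed above them. Phldb2 (4.67 ± 0.58), for a protein of the cell cortex, spread as widely, at 28.5, 159 and 32.2 against at most 3.38 elsewhere. Fabp3 (ENSMUSG00000028773), a fatty acid carrier, reached 544, 664 and 602 in diapaused ICM, with 60, 29.8 and 74.3 in ICM and 9.72 and 16.1 in epiblast (4.50 ± 0.31). Pgc (4.22 ± 0.26), which encodes the stomach protease precursor pepsinogen C, was at 26.2, 22.6 and 16.9 in diapaused ICM and at most 1.08 elsewhere. Gpnmb (3.98 ± 0.27), for a glycoprotein of lysosomes and melanosomes, was at 8.99, 18.1 and 21.5 and at most 0.084 elsewhere, and Laptm5 (3.90 ± 0.31) at 53.2, 20.8 and 21.5 and at most 1.12 elsewhere. The remaining leaders were Egr1, the scaffold gene Ahnak (4.36 ± 0.20), Habp2 (3.53 ± 0.39), for a secreted protease, and Srgn (3.46 ± 0.31), for the proteoglycan serglycin. That the 12 lie above both stages in the plot of leading genes follows from the rule that named them. Among them Egr2, S100a1, Pgc, Gpnmb and Habp2 passed the filter on low values only through their diapaused libraries.

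At the low end stood a linker histone. Hist1h1a (ENSMUSG00000049539), for histone H1.1, was at 0.766, 0.955 and 0.499 in diapaused ICM, 12.9, 7.51 and 11.5 in ICM and 14 and 7.44 in epiblast (contrast -2.71 ± 0.26, adjusted p = 2.5e-04). Snrpn (ENSMUSG00000000948), a paternally expressed imprinted gene for a spliceosomal protein, was at 2.59, 2.79 and 4.93 in diapaused ICM, 31.7, 21.6 and 21.2 in ICM and 24.6 and 39.3 in epiblast (-2.72 ± 0.26). It shares its locus and strand with Snurf, so reads may have been divided between them. Sms (ENSMUSG00000071708), which encodes the polyamine enzyme spermine synthase, was at 15.1, 10.3 and 12 in diapaused ICM, 111, 86.1 and 115 in ICM and 65.3 and 65.6 in epiblast (-2.64 ± 0.20). In all 3 genes the highest diapaused value was far under the lowest developing value. Cdca5 (ENSMUSG00000024791), for sororin, which holds sister chromatids together, was at 6.62, 7.17 and 8.24 in diapaused ICM and between 36 and 47.9 in the other 5 libraries (-2.40 ± 0.18, adjusted p = 1.2e-04). Cdc20, the activator of the anaphase-promoting complex, was at 1.99, 6.4 and 8.06 against 14.5 to 26.3 elsewhere (-1.93 ± 0.37). The adhesion gene Cadm1 (-2.53 ± 0.42), the small GTPase gene Rab13 (-2.44 ± 0.38), the kinase gene Wnk3 (-2.24 ± 0.27), the calcium-binding protein gene Gca (-2.97 ± 0.26), Myef2 (-2.27 ± 0.24), for an RNA-binding protein, and the nucleolar gene Lyar (-1.96 ± 0.33) completed the group with Aunip (-2.19 ± 0.51), for a centrosomal protein, whose call was lost without diapaused ICM replicate 1.

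**Figure D2:**
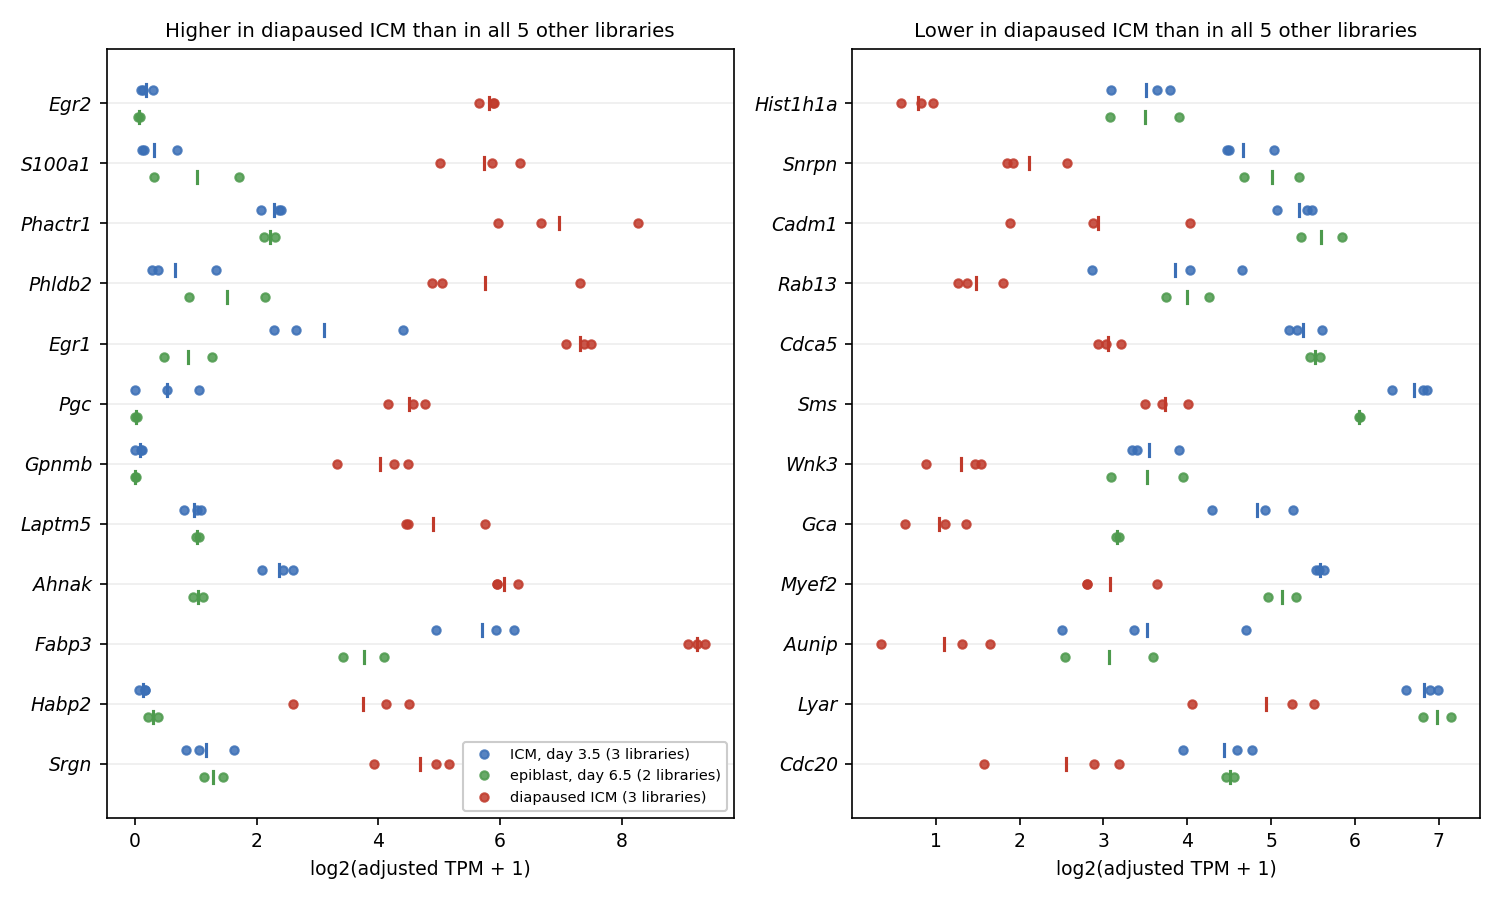
The 12 genes highest and the 12 lowest against the nearer stage, among genes called and outside all 5 other libraries with a mean of at least 10 in the higher of diapaused ICM and the developing average. Points are single libraries on the scale log2(adjusted TPM + 1) and vertical ticks are group means. By the rule that chose the genes, the 3 red points lie on 1 side of the blue and green points.

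Immediate-early genes, which are switched on within minutes by growth factor or stress signals, formed a list with the feedback genes of the ERK pathway. Of 30 tested, 16 were higher, 2 lower and 12 not called, 13 were higher and above all others, and the median contrast was 1.01, beside -0.08 over all tested genes. Egr1 (ENSMUSG00000038418), a partner of Egr2 in the same family, was at 179, 134 and 165 in diapaused ICM, 3.87, 20.1 and 5.28 in ICM and 1.4 and 0.386 in epiblast (contrast 5.33 ± 0.45, adjusted p = 1.7e-04). Zfp36l1, for a protein that binds AU-rich messages and hastens their decay, was at 28, 28.3 and 28.3 in diapaused ICM, 7.05, 8.34 and 9.24 in ICM and 4.76 and 2.79 in epiblast (2.16 ± 0.20). Its diapaused libraries barely varied. Named after their values were seen (as are the genes so marked further on), Fos (1.73 ± 0.26), Jun (1.93 ± 0.35), Nr4a1 (2.25 ± 0.22) and Maff (2.40 ± 0.32) were transcription factors of this set above all 5 others. So were the ERK feedback genes Dusp5 (2.06 ± 0.28), for a nuclear ERK phosphatase, and Spry4 (1.78 ± 0.21), for a Sprouty inhibitor. Dusp6, another ERK phosphatase gene named likewise, was the other member called lower (-1.19 ± 0.22), at 4.2, 2.21 and 2.94 in diapaused ICM, overlapping ICM (2.81 to 4.34) and under epiblast (20 and 16). Etv5, an ERK-responsive factor named likewise, was the 1 member called lower and below all others (-0.58 ± 0.19), at 20.5, 19.7 and 26.6 against 31.3 to 38.4, and its call was lost in 7 of the 8 fits without a library.

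Cholesterol genes, which the transcription factor SREBP2 switches on when sterols run low, had the largest share of higher members after the primitive endoderm and naive pluripotency markers. Of 24 tested, 15 were higher (62.5%) and 1 lower, and 11 were higher and above all others. The median contrast was 1.13, and the list medians by library were 1.37, 0.94 and 1.13 in diapaused ICM against -0.30 to 0.18 in the other 5 libraries. Fdft1 (ENSMUSG00000021273), squalene synthase, the first enzyme committed to sterols, was at 59.7, 52.5 and 50.4 in diapaused ICM, 7.67, 5.61 and 4.01 in ICM and 6.5 and 10.4 in epiblast (2.82 ± 0.24, adjusted p = 1.7e-04). Stard4, a sterol carrier, was at 51, 22.6 and 21.8 in diapaused ICM, 0.284, 0.339 and 0.802 in ICM and 2.1 and 5.62 in epiblast (3.56 ± 0.35). Cyp51, lanosterol demethylase, was at 26.1, 25.9 and 36.3 in diapaused ICM, 3.34, 2.89 and 3.87 in ICM and 11.7 and 13.1 in epiblast (1.98 ± 0.19). The naming rule required all 3 to lie above the other libraries. All 3 were called in each pairwise comparison, and epiblast was the nearer stage in each. Hmgcs1, which makes the HMG-CoA used by the pathway, was at 24.7, 30.2 and 30.2 against 5.08 to 9.87 in the developing libraries (1.90 ± 0.24). Named after their values were seen, the regulator genes Insig1 (2.41 ± 0.31) and Srebf2 (2.05 ± 0.21) were also above all others. Acat2, for an acetyl-CoA thiolase, was the member called lower (-1.08 ± 0.23) and lay inside the range of ICM. In the fits without 1 library 12 to 15 members were higher.

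**Figure D3:**
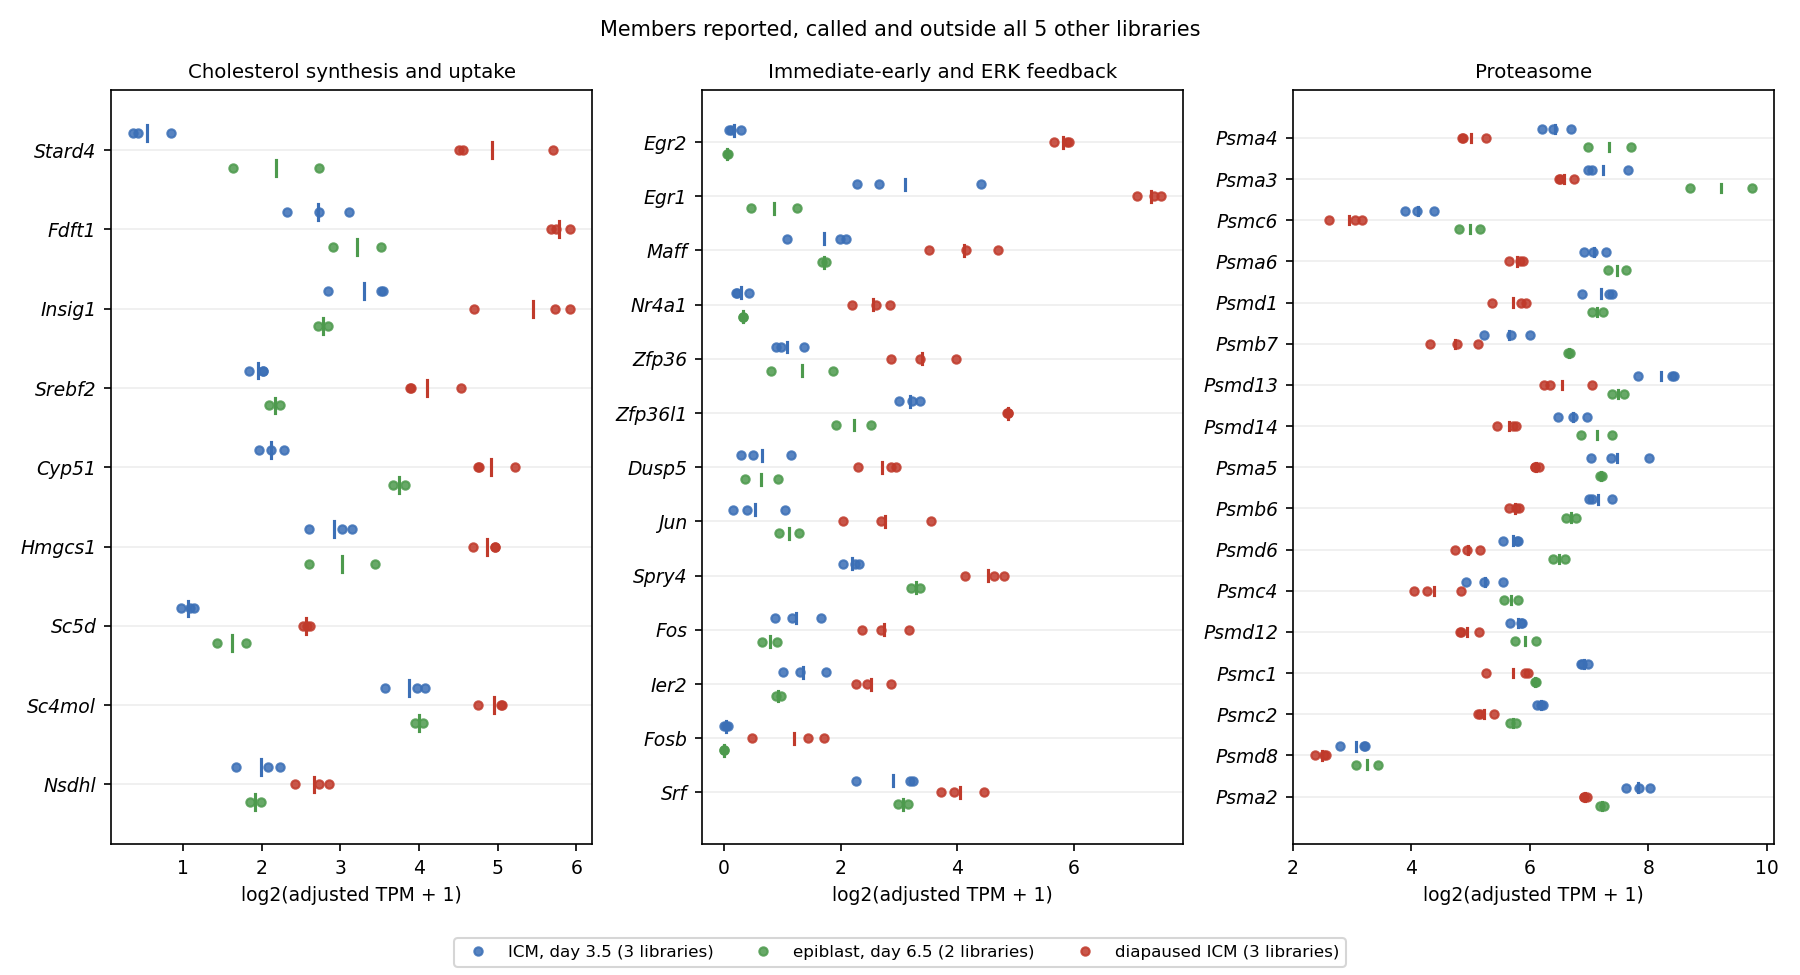
Shown are 9 cholesterol, 13 immediate-early and 17 proteasome genes that were called and lay outside all 5 other libraries, not all of them named in the text. Points are single libraries on the scale log2(adjusted TPM + 1), and ticks are group means. The first 2 panels show genes called higher and the third genes called lower. The gap between diapaused ICM and the nearer stage is wide for Egr2 and Fdft1 and narrow for Psma2, whose call was lost in 7 of the 8 fits without a library.

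Amino acid uptake and the amino acid response were higher in part. Of 19 transporter genes 7 were higher (36.8%) and 2 lower (10.5%), beside 12.8% and 11.6% over all tested genes, with 6 above all others and a median of 0.65. Slc7a2, a cationic amino acid transporter, was at 14.1, 10.9 and 12.8 in diapaused ICM, 2.46, 2.2 and 2.44 in ICM and 0.253 and 0.427 in epiblast (2.67 ± 0.17, adjusted p = 4.9e-05). Slc38a2, for a neutral amino acid transporter that carries glutamine, was at 69.2, 61 and 113 in diapaused ICM, 3.97, 3.35 and 4.29 in ICM and 32.6 and 33.2 in epiblast (2.62 ± 0.23). Slc38a1, its relative, was at 21.4, 22.6 and 31.8 in diapaused ICM, 0.328, 0.262 and 0.457 in ICM and 18.5 and 20.2 in epiblast (2.31 ± 0.19). The Slc38a1 values of epiblast lay just under those of diapaused ICM, and the difference of 0.35 ± 0.24 was not called (adjusted p = 0.275), so ICM carried that contrast.

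Of 30 genes of the ATF4 amino acid response and the unfolded protein response, 9 were higher (30%) and 1 lower (3.33%), with 8 above all others and a median of 0.38. Over all tested genes 12.8% were higher and 11.6% lower. Asns (ENSMUSG00000029752), asparagine synthetase, was at 181, 155 and 147 in diapaused ICM, 34.3, 35.1 and 49.1 in ICM and 12 and 11.9 in epiblast (2.83 ± 0.20, adjusted p = 7.5e-05). Ddit3, for the stress factor CHOP, was at 83.5, 47.7 and 51.3 in diapaused ICM, 8.91, 8.01 and 15.6 in ICM and 2.13 and 2.1 in epiblast (3.33 ± 0.27). Atf3, a stress-induced repressor, was at 3.43, 5.16 and 7.21 in diapaused ICM and at most 0.162 elsewhere (2.50 ± 0.24). Psat1, a serine synthesis enzyme usually counted among the same targets and named after its values were seen, was lower and below all others (-1.47 ± 0.23), at 42.9, 37.8 and 65.8 against 93.4 to 161. The sequence of the Asns promoter below, from RefSeq on GRCm38.p6, is shown because it holds TGATGNAA, the composite element that ATF4 and CEBP proteins are known to bind, in capitals. The window is chr6:7693210-7693269 on the minus strand, with the element ending 15 bases before the start.
Asns: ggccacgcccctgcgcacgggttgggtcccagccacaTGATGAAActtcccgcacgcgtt
Searched on both strands over the 250 bases before each start, the element was present in 3 of the 8 members above all others (37.5%), in 2 of 21 other tested members with a window (9.52%) and in 2.6% of 8120 windows of tested genes. A match is a description of letters and not a site of binding.

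Of 72 lysosomal and autophagy genes, 32 were higher (44.4%), 3 lower (4.17%) and 37 not called, and 17 were higher and above all others. Over all tested genes 12.8% were higher, 11.6% lower and 8.23% higher and above all others. The median was 0.72 against the average, 0.21 against ICM and 1.23 against epiblast. Atp6v0b, a membrane subunit of the proton pump that acidifies lysosomes, was at 65.9, 56.1 and 53.7 in diapaused ICM, 21.9, 22 and 24 in ICM and 8.05 and 6.92 in epiblast (2.07 ± 0.18, adjusted p = 1.7e-04). Ctsl, the protease cathepsin L, was at 328, 313 and 392 in diapaused ICM, 105, 74.7 and 128 in ICM and 36.6 and 39.4 in epiblast (2.45 ± 0.22). Both were called in each pairwise comparison. Cd63, a tetraspanin of late endosomes, was at 488, 471 and 411 in diapaused ICM, 278, 275 and 335 in ICM and 22.9 and 21.9 in epiblast (2.46 ± 0.18). Its difference from ICM, 0.63 ± 0.20, was not called (adjusted p = 0.0694), beside 4.29 ± 0.22 from epiblast. Named after their values were seen, Lamp1 (1.84 ± 0.23), the main lysosomal membrane glycoprotein gene, Tfeb (1.52 ± 0.24), the factor that switches on lysosomal genes, and Gabarapl1 (1.72 ± 0.17), of the family that coats autophagosomes, were also above all others. Gabarapl2 (-1.45 ± 0.18) and Map1lc3b (-0.88 ± 0.20), of the same kind of protein and named likewise, were called lower but lay between the stages, Gabarapl2 at 17, 18 and 19.5 in diapaused ICM, 215 to 240 in ICM and 12.9 and 9.61 in epiblast. Because TFEB is known to bind the letters TCACGTG, the promoter windows of the pump gene (chr4:117887334-117887393, minus strand) and of Lamp1 (chr8:13159072-13159131, plus strand) are printed with the first match in capitals, from the same source and build. Each window holds a further match left in lower case, which in Lamp1 is on the opposite strand.
Atp6v0b: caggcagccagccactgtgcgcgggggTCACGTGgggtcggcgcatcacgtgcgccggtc
Lamp1: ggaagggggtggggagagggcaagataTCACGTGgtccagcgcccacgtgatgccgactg
By the same search these letters were present in 4 of 15 windows of members above all others (26.7%), in 8 of 42 windows of the other tested members (19%) and in 6.02% of all windows.

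Among 51 genes of mTORC1, its inhibitors and AMPK, 12 were higher (23.5%) and 1 lower (1.96%), beside 12.8% and 11.6% over all tested genes. Higher and above all others were 7 of them, beside 8.23% over all tested genes. The median was 0.22 against the average, -0.02 against ICM and 0.46 against epiblast. The count of higher members was 7 without diapaused ICM replicate 3, without either epiblast library and after rescaling to a common total. Prkaa2 (ENSMUSG00000028518), the catalytic AMPK subunit alpha 2, was at 6.72, 5.38 and 6.26 in diapaused ICM, 0.738, 0.122 and 0.354 in ICM and 0.149 and 0.143 in epiblast (2.50 ± 0.21, adjusted p = 1.7e-04). The diapaused values were tight and clear of all others. Sesn2 (1.58 ± 0.18), a stress-induced inhibitor of mTORC1, was at 5.87, 5.44 and 5.35 against at most 2.1 elsewhere. Flcn (1.13 ± 0.18), for folliculin, which acts on the Rag GTPases at the lysosome, was at 13.5, 10.7 and 13.6 against 4.07 to 6.19. Mtor itself was at 6.11, 2.77 and 3.77 in diapaused ICM, 5.41, 4.83 and 4.83 in ICM and 4.24 and 3.2 in epiblast, overlapping both (-0.08 ± 0.23, adjusted p = 0.833). Stk11, for the AMPK kinase LKB1, overlapped ICM too (0.22 ± 0.19, adjusted p = 0.421).

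Insulin and IGF genes held members in both directions. Of 27 tested, 9 were higher (33.3%) and 5 lower (18.5%), beside 12.8% and 11.6% over all tested genes. The counts became 5 and 1 without epiblast replicate 1, and 1 to 5 were lower in the fits without 1 library. The IGF2-clearing receptor gene Igf2r (1.51 ± 0.18) was at 19.7, 17.4 and 21.4 against 3.19 to 10.5. The insulin receptor gene Insr (0.76 ± 0.16) was at 3.99, 3.8 and 4.46 against 1.32 to 2.79, but its call was lost after rescaling to a common total, and its difference from epiblast was not called (0.47 ± 0.20, adjusted p = 0.104). Igfbp4, which binds and holds back IGFs, was lower (-1.61 ± 0.17), at 0.728, 0.767 and 0.624 in diapaused ICM, 1.34, 1.53 and 1.75 in ICM and 9.16 and 10.3 in epiblast. Its difference from ICM was not called (-0.57 ± 0.19, adjusted p = 0.0824). Foxo3 (0.86 ± 0.18), a transcription factor restrained by insulin signals, was called but not above ICM (0.06 ± 0.19 against ICM), and Foxo1 was not called (-0.17 ± 0.23, adjusted p = 0.625).

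Some antiproliferative genes were higher. Of 25 inhibitors of the cell cycle 8 were higher (32%), 0 lower and 17 not called, beside 12.8% higher and 11.6% lower over all tested genes. Above all others were 7, and the median was 0.45. The higher members numbered 5 without diapaused ICM replicate 3. Tob1, an antiproliferative partner of the messenger deadenylase, was at 81.6, 30.5 and 42.6 in diapaused ICM, 9.61, 13.1 and 8.67 in ICM and 1.53 and 1.47 in epiblast (3.19 ± 0.31, adjusted p = 2.8e-04). Btg2, of the same family, was at 9.76, 9.66 and 7.97 in diapaused ICM, 1.89, 0.602 and 2.21 in ICM and 0.183 and 0.55 in epiblast (2.47 ± 0.26). Hes1, a Notch target and repressor, was at 26.8, 10.4 and 6.01 in diapaused ICM, 0.131, 0.0893 and 0.304 in ICM and 2.26 and 1.32 in epiblast (2.86 ± 0.40). Each was above all other libraries, as the naming rule required, with Hes1 the most variable. Btg1 (1.03 ± 0.19) and the CDK inhibitor genes Cdkn1b (0.90 ± 0.20) and Cdkn1a (1.46 ± 0.36) were at lower levels, with diapaused maxima of 9.2, 3.62 and 3.72. The call of Cdkn1a was lost without diapaused ICM replicate 2 or 3 or epiblast replicate 2. Of 15 genes of G1 cyclins and Myc 2 were higher (13.3%) and 3 lower (20%), beside 12.8% and 11.6% over all tested genes. Ccne1, for cyclin E1 (-1.51 ± 0.17), and Cdc25a, for the phosphatase that frees CDK2 (-1.02 ± 0.19), were below all others. Myc was at 28.6, 20.6 and 11.2 in diapaused ICM, overlapping ICM (7.3 to 13) and epiblast (12.3 and 6.16), and was not called (0.96 ± 0.34, adjusted p = 0.0706).

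Of 61 genes of G2 phase and mitosis, 36 were lower (59%) and 1 higher. Of these 25 were lower and below all others, and the median was -0.96. By library the list medians were -1.19, -1.04 and -0.63 in diapaused ICM, -0.16 to -0.06 in ICM and 0.15 and -0.04 in epiblast. Birc5, for survivin of the chromosomal passenger complex, was at 15.7, 28.5 and 33.1 in diapaused ICM, 83.6, 88.7 and 98.8 in ICM and 218 and 141 in epiblast (-2.31 ± 0.28, adjusted p = 7.5e-04). Ncapg, a condensin subunit, was at 10.6, 12.5 and 10.8 in diapaused ICM, 24, 21.9 and 30.6 in ICM and 105 and 82.3 in epiblast (-2.02 ± 0.20). Bub1, a spindle checkpoint kinase, was at 3.14, 3.44 and 3.79 in diapaused ICM, 6.36, 11.6 and 8.82 in ICM and 17.9 and 23.3 in epiblast (-1.69 ± 0.22). In each, epiblast stood highest and diapaused ICM lowest. Plk1, the Polo kinase of mitosis, named after its values were seen, was at 14.7, 9.46 and 14.5 in diapaused ICM and 27.5 to 41.7 elsewhere (-1.48 ± 0.22), with no gap between the stages. Promoters of mitotic genes are known for paired elements, a CCAAT box bound by NF-Y and a cell cycle homology region written here as TTTGAA, so 3 RefSeq windows on GRCm38.p6 are printed with 1 of these in capitals: TTTGAA in Cdc20 (chr4:118437344-118437403, minus strand) and Ncapg (chr5:45669865-45669924, plus strand), and CCAAT in Plk1 (chr7:122159375-122159434, plus strand).
Cdc20: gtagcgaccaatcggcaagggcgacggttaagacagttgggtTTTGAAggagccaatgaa
Ncapg: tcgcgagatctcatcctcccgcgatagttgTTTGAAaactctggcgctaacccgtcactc
Plk1: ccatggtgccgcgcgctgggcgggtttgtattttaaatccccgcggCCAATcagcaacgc
Of 19 windows of mitotic genes lower and below all others, CCAAT was present in 15 (78.9%) and TTTGAA in 5 (26.3%). Of 29 windows of the other tested members they were present in 18 (62.1%) and 12 (41.4%), and of all windows in 41.2% and 12.8%. CCAAT was thus the more frequent in the members below all others and TTTGAA the less frequent, and neither difference was tested.

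Of 52 DNA replication genes, 15 were lower, 0 higher and 37 not called, with 9 below all others and a median of -0.53, and 8 were lower without epiblast replicate 1 or without diapaused ICM replicate 2. Rrm2, the ribonucleotide reductase subunit that limits deoxynucleotide supply, was at 9.59, 11.5 and 12.4 in diapaused ICM, 31.6, 41.4 and 37.9 in ICM and 67.8 and 84 in epiblast (-2.15 ± 0.19, adjusted p = 2.1e-04). Mcm7 (-1.73 ± 0.24), of the replicative helicase, was at 16.5, 27.4 and 25.8 against 44 to 125 elsewhere. Dut (-1.81 ± 0.30), which keeps uracil out of DNA, was at 21.5, 25.6 and 36 against 60.3 to 165.

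Lists of genes that make proteins differed in the direction of their called members. Of 81 cytosolic ribosomal protein genes 28 were higher and 1 lower, with 25 above all others and a median of 0.60, and 18 were higher without diapaused ICM replicate 2. Rps21 was at 2470, 3040 and 1750 in diapaused ICM, 695, 805 and 938 in ICM and 294 and 432 in epiblast (2.13 ± 0.24, adjusted p = 5.5e-04). Ribosomal protein genes have near-identical copies elsewhere in the genome, which makes their values uncertain. Rps27l, a relative of Rps27 known as a p53 target and named after its values were seen, was the lower member (-1.17 ± 0.23). Of 71 ribosome biogenesis genes, by contrast, 18 were lower and 1 higher, with 13 below all others and a median of -0.36. The lower members numbered 10 without epiblast replicate 1 or diapaused ICM replicate 1 or 2, and 11 without epiblast replicate 2. Wdr75 (-1.23 ± 0.18), which helps RNA polymerase I, was at 11.3, 11.5 and 10.9 against 17.2 to 40. Ncl (-1.22 ± 0.20), nucleolin, was at 97.6, 109 and 112 in diapaused ICM, just under the 113 to 171 of ICM and far under the 474 and 392 of epiblast. Of 45 translation factors 4 were higher (8.89%) and 8 lower (17.8%), beside 12.8% and 11.6% over all tested genes. The lower members numbered 4 to 11 without 1 library. The elongation factor gene Eef2 (1.36 ± 0.19) was at 904, 800 and 951 against 204 to 571, and Eif3f (1.10 ± 0.19) was also above all others, whereas the cap-binding factor gene Eif4e (-1.07 ± 0.19) was at 32.5, 34.7 and 37 against 48.1 to 100.

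Called members of the mitochondrial translation and splicing lists were mostly lower, although most members were not called. Of 82 genes of mitochondrial ribosomes and translation 25 were lower, 1 higher and 56 not called, with 19 below all others and a median of -0.53, and 14 were lower without epiblast replicate 1. Mrps25 was at 5.7, 5.87 and 7.42 in diapaused ICM, 21, 24 and 29.8 in ICM and 22.9 and 23.1 in epiblast (-1.77 ± 0.19, adjusted p = 4.7e-04), and Mrpl11 (-1.40 ± 0.18) at 3.74, 3.5 and 3.22 against 7.09 to 17.3. The 1 member higher was Mrpl23 (1.88 ± 0.26), at 43.5, 43.4 and 35.2 against 5.4 to 21.4. Of 58 splicing genes 20 were lower, 3 higher and 35 not called, with 15 below all others and a median of -0.56, and 13 were lower without epiblast replicate 1 or without diapaused ICM replicate 1 or 2. Lsm6 (-1.48 ± 0.21) and Lsm3 (-1.32 ± 0.20), of the ring that joins U6 RNA, and the SR protein gene Srsf9 (-1.69 ± 0.25) led by adjusted p. For Srsf9 the values were 14.7, 13.9 and 19 in diapaused ICM, 28.1, 38.6 and 53.6 in ICM and 61.2 and 84.8 in epiblast. Srsf5, another SR protein gene named after its values were seen, went the other way (1.22 ± 0.19), at 848, 1140 and 1280 against 279 to 759.

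The proteasome list had the largest share of lower members of the lists described. Of 38 subunit genes 24 were lower (63.2%) and 0 higher, with 17 below all others and a median of -0.79, and 14 were lower without diapaused ICM replicate 1 and 15 without replicate 2. By library the medians were -0.99, -0.79 and -0.63 in diapaused ICM against 0.06 to 0.23 in ICM and -0.13 and -0.12 in epiblast. Psma4, of the outer ring of the core particle, was at 37.5, 28.4 and 28 in diapaused ICM, 83.2, 72.7 and 103 in ICM and 207 and 126 in epiblast (-1.89 ± 0.24, adjusted p = 9.4e-04). Psma6 (-1.48 ± 0.19), of the same ring, was at 58.4, 49 and 56.2 against 119 to 196. Psmc6 (-1.61 ± 0.22), an ATPase of the cap, was at 7.97, 5.13 and 7.3 against 13.8 to 34.9. The naming rule required that none of the 3 overlap a developing library, and all 3 were called in each pairwise comparison. Of 27 chaperone genes of the heat shock families 9 were lower and 3 higher, with 6 below and 3 above all others, and 5 were higher without diapaused ICM replicate 1. Hspe1 (-1.69 ± 0.24), the mitochondrial co-chaperonin, and Dnaja1 (-1.53 ± 0.24), a cytosolic partner of HSP70, were lower. Hspe1 was not called against ICM (-0.81 ± 0.26, adjusted p = 0.0771). Dnaja1 was at 639, 476 and 652 against 1070 to 3350. The small heat shock gene Hspb1 was higher, at 49.9, 30.9 and 43 in diapaused ICM, 3.49, 4.94 and 7.67 in ICM and 3.52 and 2.28 in epiblast (3.09 ± 0.27, adjusted p = 1.9e-04).

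**Figure D4:**
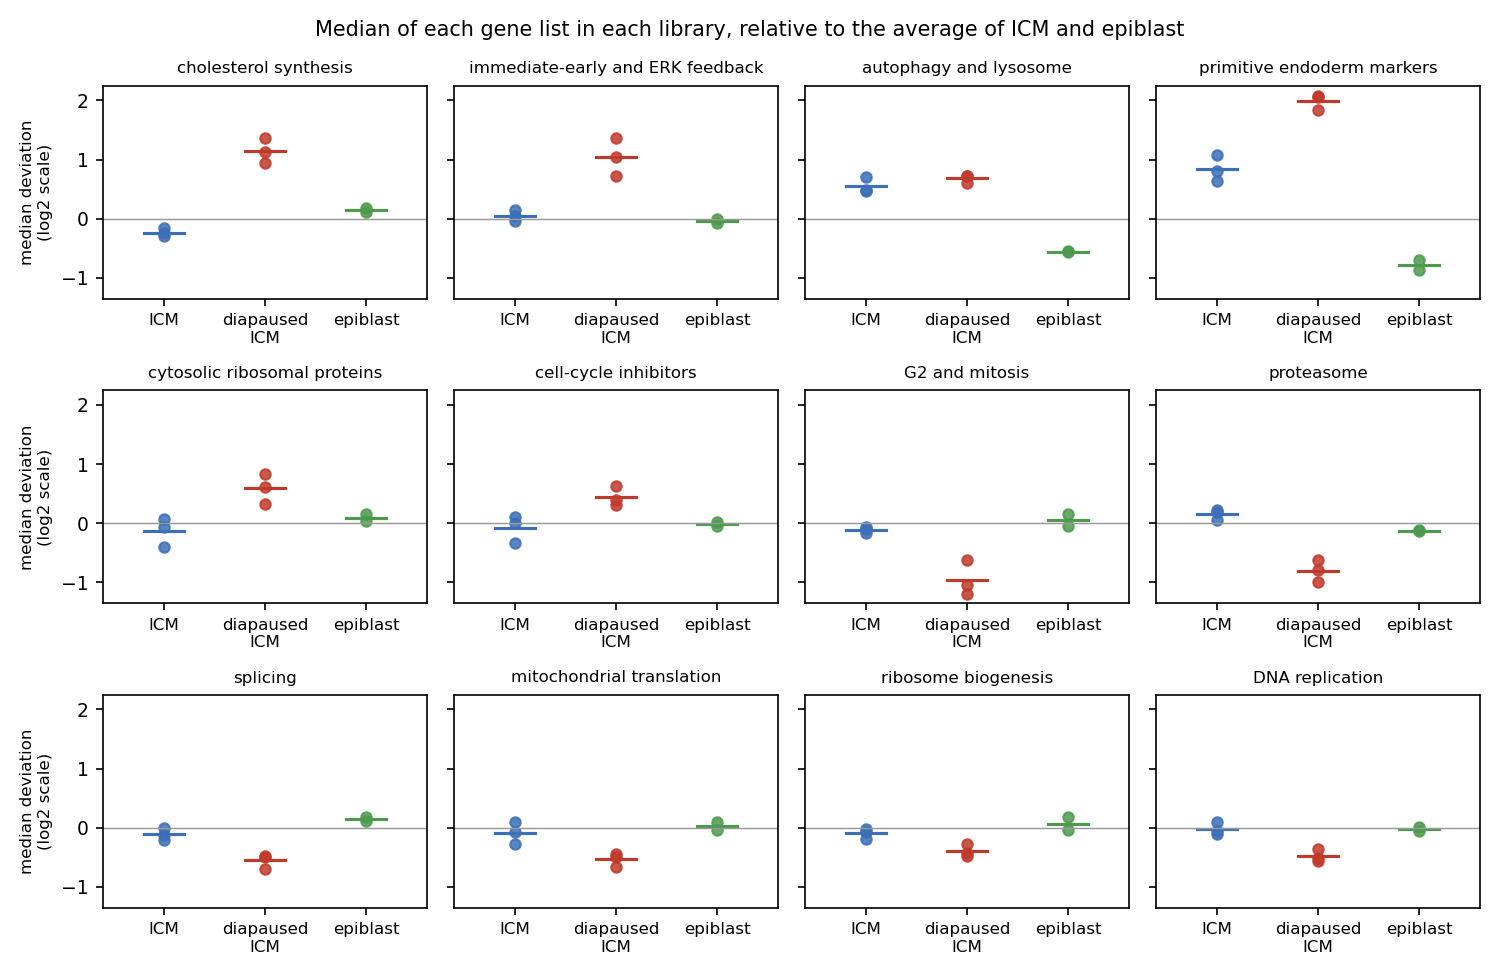
Each point is the median, over the tested members of a list, of a library's log2(adjusted TPM + 1) minus the average of the ICM and epiblast means, and bars are group means of these points. The points of diapaused ICM overlap those of ICM in the autophagy and lysosome panel and lie outside those of both stages in every other panel. The gap is smallest for ribosome biogenesis.

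Fuel genes were mixed. Of 23 glycolysis genes 6 were higher and 10 lower, and the median was 0.82 against ICM and -1.38 against epiblast. By library the list medians were -0.59, -0.76 and 0.01 in diapaused ICM, -0.68, -0.69 and -0.52 in ICM and 0.60 and 0.76 in epiblast. By these medians alone replicate 3 lay between the stages and the other diapaused libraries near ICM. The 0.82 above is instead the median of gene-by-gene differences from ICM, so the measures differ. The lower members numbered 4 without epiblast replicate 1 and 6 without diapaused ICM replicate 2. The glucose transporter gene Slc2a3 was at 162, 133 and 200 in diapaused ICM, 22.4, 23.8 and 25.8 in ICM and 36.5 and 45.7 in epiblast (2.34 ± 0.20, adjusted p = 1.8e-04), above both stages. Pfkfb2 (1.65 ± 0.19), which makes the activator of phosphofructokinase, was at 10.1, 8.95 and 9.33 against 0.695 to 5.98, and Pfkp (1.55 ± 0.29), the platelet-type phosphofructokinase, at 17.5, 16.7 and 37 against 5.01 to 11.8. Of 19 fatty acid synthesis genes 7 were higher and 1 lower, with Fasn, fatty acid synthase, at 10.2, 13.3 and 14 against 3.12 to 5.73 (1.44 ± 0.19). The higher members numbered 3 without diapaused ICM replicate 3, without epiblast replicate 2 or after rescaling to a common total. Of 23 fatty acid oxidation genes 5 were higher (21.7%) and 4 lower (17.4%), beside 12.8% and 11.6% over all tested genes. These counts became 3 to 6 and 0 to 3 without 1 library. Cpt1a, which admits fatty acids to mitochondria, was at 20.3, 26 and 19.7 in diapaused ICM, 12.2, 11.6 and 13.2 in ICM and 0.573 and 0.553 in epiblast (2.32 ± 0.17), the average of differences of 0.78 ± 0.19 from ICM and 3.87 ± 0.22 from epiblast. The lipid droplet gene Plin2 had a contrast of 0.01 ± 0.26 that hid opposite differences, -2.30 ± 0.29 against ICM and 2.32 ± 0.32 against epiblast.

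Of 73 nuclear genes of the respiratory chain 8 were higher (11%) and 14 lower (19.2%), beside 12.8% and 11.6% over all tested genes, numbers that ranged from 2 to 8 and from 7 to 18 without 1 library. Cox7a2l, a factor of respiratory supercomplexes, was at 313, 306 and 265 against 77.3 to 138 (1.39 ± 0.19), while Cycs, for cytochrome c (-1.05 ± 0.20), and Atp5g3, of the ATP synthase ring (-1.65 ± 0.31), were below all others. The differences from ICM, -0.62 ± 0.22 for Cycs and -0.78 ± 0.34 for Atp5g3, were not called (adjusted p = 0.111 and 0.18). Of 31 TCA cycle and pyruvate genes 5 were higher and 5 lower, which became 2 to 5 and 1 to 5. Idh2, for the NADP-dependent mitochondrial isocitrate dehydrogenase (1.30 ± 0.23), was at 31.9, 40.5 and 58.7 against 11.9 to 24.1. Hypoxia and redox genes were mixed as well. Vegfa, for the vascular growth factor, was at 22.4, 14.9 and 35.4 in diapaused ICM, 7.09, 3.94 and 3.87 in ICM and 1.21 and 2.88 in epiblast (2.53 ± 0.33, adjusted p = 0.0011). Gstm1, a glutathione transferase, was higher (2.11 ± 0.24) and Prdx6, a peroxiredoxin, lower (-1.66 ± 0.20). Of 43 polyamine and one-carbon genes 10 were higher and 5 lower, and 6 were higher after rescaling to a common total. Aldh1l1, a folate enzyme, was at 24.2, 23.2 and 13.8 in diapaused ICM, 1.69, 0.972 and 1.89 in ICM and 0.723 and 0.558 in epiblast (3.37 ± 0.24), opposite in direction to Sms.

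Of 25 naive pluripotency genes, 19 were higher and 1 lower, but only 6 were above all others, and the median was 1.81 against the average, -0.14 against ICM and 3.06 against epiblast. The 3 leaders were Stat3, Dnmt3l and Klf4. Klf4 was not called against ICM (0.69 ± 0.26, adjusted p = 0.118). Stat3, the effector of LIF, was at 101, 107 and 107 in diapaused ICM, 79, 62.5 and 61.2 in ICM and 5.5 and 6.07 in epiblast (2.30 ± 0.18, adjusted p = 1.3e-04), and its difference from ICM, 0.64 ± 0.20, was not called (adjusted p = 0.068). Dnmt3l, a cofactor of new DNA methylation, was at 59.3, 65.1 and 60.2 in diapaused ICM, 23.7, 19.8 and 24.2 in ICM and 10.4 and 10.7 in epiblast (1.92 ± 0.17). The LIF receptor gene Lifr was at 27, 19.5 and 22.3 in diapaused ICM, 11.2, 8.53 and 12 in ICM and 1.43 and 2.3 in epiblast (2.06 ± 0.21), a call also against ICM (1.05 ± 0.23, adjusted p = 0.0186). Il6st, the shared receptor chain gp130, was called (1.59 ± 0.30) but overlapped ICM. Of 13 genes of LIF and STAT3 signalling 4 were higher (30.8%) and 0 lower, beside 12.8% and 11.6% over all tested genes. Of 18 core pluripotency genes 1 was higher and 5 lower, and 2 to 7 were lower in the 8 fits without 1 library. Nanog was at 155, 120 and 132 in diapaused ICM, inside the ICM range of 102 to 244, and was not called (0.22 ± 0.30, adjusted p = 0.632). Pou5f1, for OCT4, was at 102, 115 and 100 in diapaused ICM, 118, 135 and 135 in ICM and 70.5 and 66.2 in epiblast (0.17 ± 0.17, adjusted p = 0.504), between the stages. Utf1 (-1.38 ± 0.28), for a chromatin factor of pluripotent cells, was below all others. Of 19 post-implantation epiblast genes 11 were lower and 0 higher (6 without epiblast replicate 1), and 3 of them, Otx2 (-3.37 ± 0.28), Pim2 (-2.74 ± 0.24) and Dnmt3b (-2.91 ± 0.31), were below every ICM library as well. The difference from ICM was not called for Otx2 (-1.08 ± 0.31, adjusted p = 0.0517) or Pim2 (-0.37 ± 0.27, adjusted p = 0.428). Dnmt3b was at 13.5, 8.54 and 7.38 in diapaused ICM, 21, 24.1 and 32.9 in ICM and 347 and 158 in epiblast.

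The counts of the other signalling lists stand beside 12.8% higher and 11.6% lower over all tested genes. Of 29 Wnt genes 5 were higher (17.2%) and 0 lower. Above all others were 3 of the 29, which is near the 8.23% over all tested genes. They were Dkk1 (1.98 ± 0.20), Sfrp1 (1.77 ± 0.24) and Nkd1 (1.40 ± 0.31), each of which encodes an inhibitor of the pathway. Nkd1, at 2.11, 2.75 and 0.631 against at most 0.0199 elsewhere, passed the filter on low values only through its diapaused libraries. Dkk1 was at 11.2, 10.3 and 9.92 in diapaused ICM, 2.97, 2.58 and 4.65 in ICM and 1.09 and 0.852 in epiblast. Of 26 Notch and Hippo genes 7 were higher and 1 lower, and the higher members numbered 4 without epiblast replicate 1, without diapaused ICM replicate 1 or after rescaling to a common total. Wwtr1, for the Hippo effector TAZ, was at 58.2, 43 and 58.6 against 3.33 to 31.1 (2.11 ± 0.24), and Tead2, for a DNA-binding partner of such effectors, was lower (-1.98 ± 0.29). Of 26 BMP and Nodal genes 2 were higher and 3 lower, and 0 to 3 were lower without 1 library. Lefty1, a Nodal inhibitor (1.31 ± 0.25), was at 2.91, 1.38 and 1.45 against at most 0.184. Of 12 FGF ligands and receptors 5 were higher and 2 lower, 0 were called outside both stages, and 2 to 4 were higher without 1 library. Of 10 steroid-responsive genes 4 were higher and 1 lower. Per1, a clock gene that glucocorticoids and progestins can induce, was at 1.33, 2.46 and 1.13 against at most 0.125 (1.29 ± 0.25), and Sgk1 at 19.6, 21.1 and 19.3 against 8.8 to 14.2 (0.84 ± 0.19), a call lost without epiblast replicate 1. The higher members numbered 2 without epiblast replicate 1.

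Primitive endoderm markers had the largest share of higher members of the lists described. Of 25 primitive endoderm markers 22 were higher (88%) and 0 lower, with 21 above all others and medians of 1.25 against ICM and 2.61 against epiblast. Sparc, a matrix glycoprotein, was at 1370, 1290 and 1520 in diapaused ICM, 493, 427 and 500 in ICM and 32.7 and 22.2 in epiblast (3.59 ± 0.19, adjusted p = 4.3e-05). Lama1, laminin alpha 1, was at 63.8, 56.9 and 63.3 in diapaused ICM, 15.4, 11.1 and 22 in ICM and 0.143 and 0.217 in epiblast (3.82 ± 0.23). Pdgfra, the lineage's receptor tyrosine kinase, was at 41.9, 40.3 and 33.5 in diapaused ICM, 26.5, 32.8 and 24.2 in ICM and 0.121 and 0.114 in epiblast (2.80 ± 0.19), and its difference from ICM was not called (0.46 ± 0.21, adjusted p = 0.187). Gata4, a lineage factor, was at 11.2, 9.22 and 10.8 in diapaused ICM, 4.66, 5.09 and 5.42 in ICM and 0.549 and 0.511 in epiblast (1.91 ± 0.16). Gata6, an earlier factor of the lineage, went the other way against ICM (-0.93 ± 0.25, adjusted p = 0.0388), at 1.42, 1.55 and 2.02 against 3.33 to 5.3, and had no call in the contrast (0.04 ± 0.22, adjusted p = 0.915). Sox17 was not called (0.70 ± 0.31, adjusted p = 0.131). Of 28 matrix and integrin genes 14 were higher and 0 lower, with 11 above all others. They include Lamc1 (3.01 ± 0.23) and share members with the endoderm list, so the lists are not separate observations.

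Of 40 genes for tetraspanins, S100 proteins, annexins and actin binders 19 were higher, 3 lower and 18 not called, with 14 above all others and a median of 0.74. Cd81, a tetraspanin, was at 81.9, 57.4 and 97.6 in diapaused ICM, 0.686, 0.734 and 0.628 in ICM and 28.8 and 24.6 in epiblast (3.52 ± 0.21, adjusted p = 4.3e-05). S100a11 was at 291, 437 and 347 in diapaused ICM, 68.1, 81.7 and 84.1 in ICM and 18 and 14.9 in epiblast (3.26 ± 0.20), and S100a13 at 19.3, 16.5 and 19.5 against at most 1.51 elsewhere (3.58 ± 0.24). Of 20 MHC and interferon genes 4 were higher (2 to 5 without 1 library) and 1 lower. B2m, the light chain of MHC class I, was at 57.2, 93.6 and 56.2 in diapaused ICM, 1.08, 1.15 and 1.6 in ICM and 7.35 and 11.4 in epiblast (3.82 ± 0.24), while the heavy chain gene H2-K1 was lower (-1.37 ± 0.22), at 3.34, 4.14 and 4.51 against 7.81 to 14.9. Of 29 adhesion and junction genes 6 were higher and 6 lower (20.7% each), beside 12.8% and 11.6% over all tested genes. The desmosomal genes Dsg2 (1.82 ± 0.24) and Jup (1.62 ± 0.24) were higher, and the gap junction gene Gja1 was lower, at 18.5, 24.5 and 34.9 against 45.7 to 134 (-1.67 ± 0.27). Jup was not called against ICM (0.60 ± 0.27, adjusted p = 0.183).

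Chromatin genes included some of the lowest contrasts. Of 22 linker and variant histone and HMG genes 11 were lower and 3 higher, and 6 were lower without epiblast replicate 1. Hist1h1e, for histone H1.4, was at 1.51, 1.42 and 1.13 in diapaused ICM, 5.75, 5.31 and 7.56 in ICM and 19 and 7.79 in epiblast (-2.05 ± 0.27, adjusted p = 0.00123). In contrast Hist1h1c, for histone H1.2 and named after its values were seen, was at 14.3, 9.92 and 12.3 against 3.81 to 5.33 (1.31 ± 0.19), and H2afy2, for macroH2A2, at 13, 19.5 and 13.5 against 0.914 to 7.67 (1.96 ± 0.21). Some histone genes have closely similar copies, and reads may have been divided among these. Of 78 chromatin modifier genes 13 were higher (16.7%) and 11 lower (14.1%), near the 12.8% and 11.6% over all tested genes, ranging from 7 to 13 and from 4 to 10 without 1 library. Hdac2, a deacetylase, was at 227, 172 and 227 in diapaused ICM, 522, 262 and 680 in ICM and 1560 and 1980 in epiblast (-2.10 ± 0.31). The heterochromatin protein genes Cbx3 (-1.50 ± 0.21) and Cbx1 (-1.71 ± 0.28) were below all others too. The difference from ICM was not called for Hdac2 (-1.13 ± 0.34, adjusted p = 0.0618) or Cbx1 (-0.87 ± 0.31, adjusted p = 0.101). Kat8, an acetyltransferase, was not called (-0.18 ± 0.41, adjusted p = 0.769). Of 19 DNA methylation genes 6 were higher and 5 lower. Uhrf2 (1.31 ± 0.21), a reader of modified DNA, was at 45.4, 28.7 and 28.8 against 6.18 to 24.6. Its difference from epiblast was not called (0.51 ± 0.26, adjusted p = 0.161). Of 21 imprinted genes 7 were higher and 4 lower. Peg3, a paternally expressed zinc finger gene, was at 47.5, 41.9 and 56.3 in diapaused ICM, 2.56, 1.28 and 3.46 in ICM and 19.6 and 23.6 in epiblast (2.51 ± 0.25), opposite to Snrpn, and Impact, a regulator of the amino acid sensor GCN2, was also higher (1.71 ± 0.18).

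**Figure D5:**
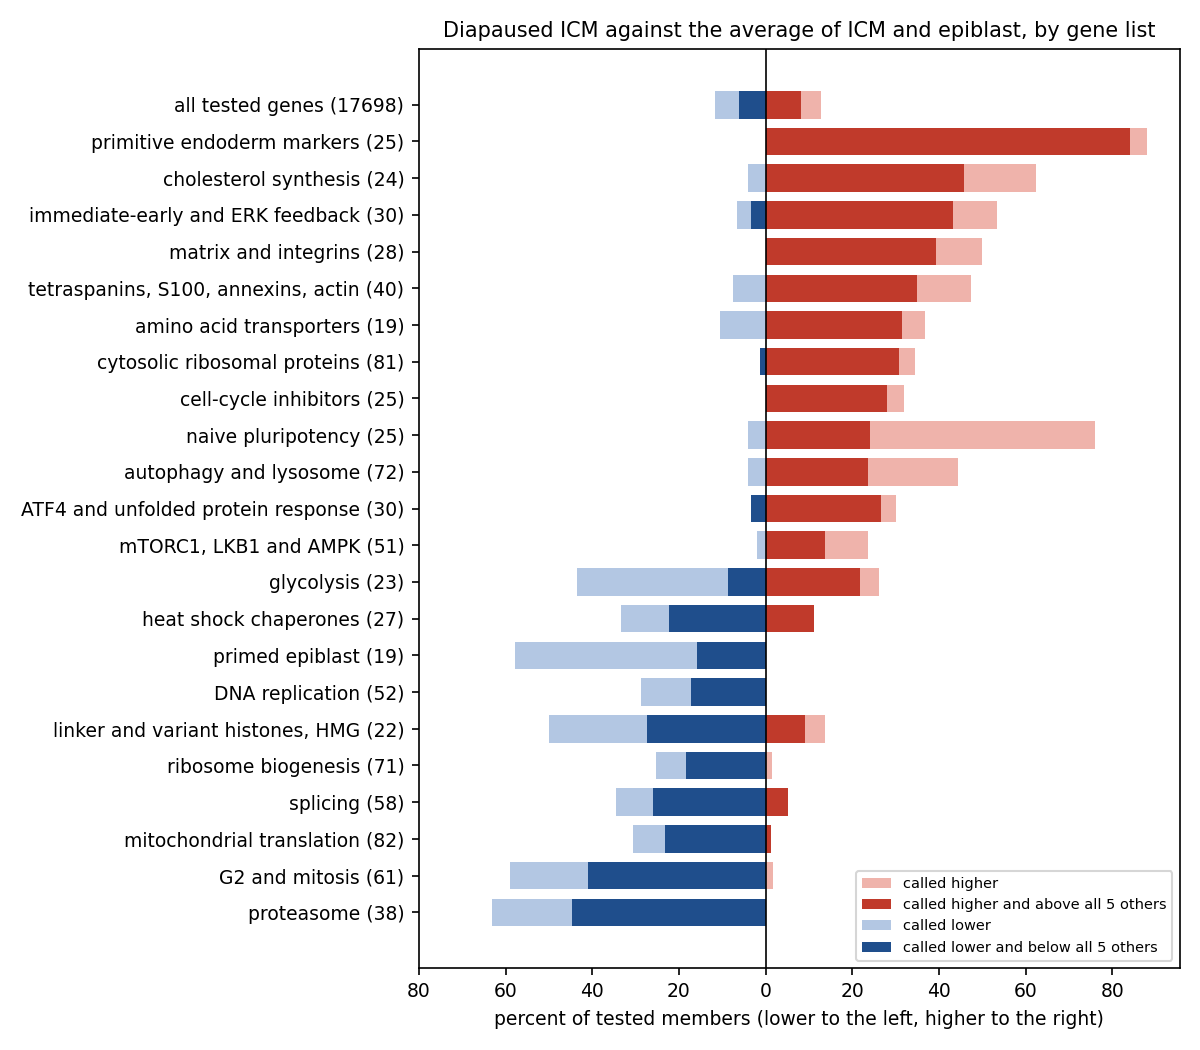
Bars give, for all tested genes and for 22 gene lists, the percent of tested members (number in brackets) called lower, to the left, and higher, to the right. Dark parts are members that also lay outside all 5 other libraries. The dark part is most of the red bar for primitive endoderm and cholesterol genes and a small part of it for naive pluripotency genes.

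Oocyte and cleavage-stage genes lay far under ICM and somewhat above epiblast by their medians, -3.06 against ICM and 0.72 against epiblast. Of 16 tested, 7 were lower and 3 higher, with 2 lower and below all others. Over all tested genes 11.6% were lower, 12.8% higher and 6.12% lower and below all others. Pramel4 was at 1.4, 0.315 and 0.658 in diapaused ICM, 77.9, 84.3 and 95.6 in ICM and 1.72 and 2.72 in epiblast (-3.26 ± 0.24, adjusted p = 8.9e-05). Trim43a, at 19.1 to 28.8 in ICM, was at most 0.0332 in diapaused ICM and epiblast, and its difference from epiblast was -0.03 ± 0.23 (adjusted p = 0.929). Dppa3, an oocyte and naive factor, showed how the average can hide a gene: at 45.9, 59.6 and 44.2 in diapaused ICM, 1050, 1360 and 987 in ICM and 3.68 and 2.31 in epiblast, its contrast was -0.40 ± 0.22 (adjusted p = 0.214). Of 27 p53 and apoptosis genes 6 were higher (22.2%) and 3 lower (11.1%), beside 12.8% and 11.6% over all tested genes. The lower members numbered 0 to 4 without 1 library. The apoptosome gene Apaf1 was higher (0.94 ± 0.21). Mycn (-0.83 ± 0.42), Sox2 (-0.03 ± 0.39), the lipase gene Pnpla2 (0.67 ± 0.39) and Txnip (0.64 ± 0.44), which restrains glucose uptake, were not called, at adjusted p values of 0.176 to 0.967.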

How the data were processed

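RNA from pooled embryos was amplified with the WT-Ovation Pico kit before sequencing, per the labels' protocols. Per the submitters' processing notes, mm9 was the build, and Bowtie 0.12.5 and DESeq were among the tools. How strand, or reads matching several genes, were treated is unknown here. The deposited values were described as TPM but sum to 720674 to 1179026 per library, so they were taken as a signal that the authors adjusted, the adjustment not being given in the sources used here. They hold no counts, so the depth is unknown and no counting error is given. The test planned for TPM, which also suits such a signal, was kept.

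From these values log2(value + 1) was computed, which understates the change of low genes. Genes with at least 1 in at least 2 of 8 libraries (17698 of 38924) were fitted with limma 3.58.1 in R 4.3.3, with 3 group means, a variance trend and Benjamini-Hochberg adjustment over all tested genes. Genes under 1 in all developing libraries, such as Egr2, Gpnmb, Habp2, Atf3, Prkaa2, Nkd1, Lefty1 and Per1, passed this filter only through their diapaused values. The same holds for genes that reached 1 in only 1 developing library, such as S100a1, Pgc and Cdkn1a. Such genes could hardly be called lower. The script was tested on simulated data. The labels call the libraries biological replicates, and p-values measure the spread between these pools. The naming rule took the 12 highest and 12 lowest genes against the nearer stage, up to 3 members of each of 52 gene lists by adjusted p among those called and outside all 5 others, and a fixed set of genes. Some genes that the rule or the lists hold are not reported here. The lists, genes and comparison were chosen with earlier results of these data known. Of 169 genes so named, 29 overlap a protein-coding gene in the GENCODE annotation of GRCm38, and reads from such partners cannot be told apart. Promoter letters came from RefSeq windows on GRCm38.p6, which covered 8120 of 17638 tested symbols. Alternatives were other pseudocounts, filters, scalings, models and the omission of each library.

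Replicate numbers were checked for pairing: correlations of the deviations of same-numbered libraries from their group means ran from -0.06 to 0.13, so the libraries were not treated as paired.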

Additional observations from a re-analysis of the deposited data

How the results depend on the processing

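Of 156 named genes that were called, 151 lost the call in no fit without 1 library that tested them. In the other settings that tested them 150 also lost no call, apart from the minimum fold and the requirement of both pairwise calls. In 0 cases did the direction change. Settings whose filter left a gene out did not count as a loss. Nkd1 was tested in 17 of 20 settings, and a filter of at least 5 in at least 2 libraries tested 162 named genes, called or not. Of the same genes 37 lost the call when both pairwise calls were required and 31 under the minimum fold. The 37 include Eif4e, Ncl, Cdc25a, Cdkn1a, Cdkn1b, Lsm6, Wwtr1, Tead2, Lamp1, Apaf1 and Sgk1, besides genes for which this is stated above. The 2269 higher and 2055 lower genes became 1523 to 2171 and 1046 to 2086 without 1 library, with the lower genes falling to 1253, 1301, 1046 and 1282 without diapaused ICM replicate 1 or 2 and epiblast replicate 1 or 2. Those also outside all 5 others (1456 and 1084) became 1147 to 1591 and 736 to 1364. Without the filter on low values 1471 genes were higher, from a larger number tested. A minimum fold of 1.5 left 698 higher and 423 lower genes, 602 and 276 of them outside all others. Calls in both pairwise comparisons numbered 817 and 364, of which 815 and 364 lay outside. Rescaling to a common total shifted the median of all genes by -0.105 and changed the split to 1633 higher and 2029 lower, a share of higher calls of 44.6%. With the replicate number as a block 2024 genes were higher and 1919 lower, 1309 and 949 of them outside all others. Of 2860 list values recomputed without 1 library, after rescaling or after quantile normalization, 409 moved. A count moved when it changed by over 1.5 times, or to or from 0. A list median moved when it shifted by at least its spread between libraries of a group. The unknown depth limits what can be said of genes near a level of 0.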
